A study of Mus musculus with 7 samples.

Results

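The cells described here carried the epididymal lipocalins *Lcn8* and *Lcn9* at a summed level above that of *Gpx5*, and they were found in the libraries of the series labelled young and old. A cell was taken when it held at least 500 genes, at most 10% mitochondrial UMIs and at least 3000 UMIs, and when *Lcn8* and *Lcn9* together made up at least 2% of its UMIs and exceeded its *Gpx5* UMIs. A UMI (unique molecular identifier) is a tag by which each captured RNA molecule is counted once, here near its 3′ end, so levels were not divided by gene length. The rule found 279 cells, 49 in young and 230 in old, among 40342 cells of the whole series that passed the limits on genes and mitochondrial UMIs, 20316 of them with at least 3000 UMIs. Because the cells were chosen by *Lcn8*, *Lcn9* and *Gpx5*, and all other genes were read in the same cells, differences from other cells are described with no test.

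Both libraries came from wild type FVB/NJ males without a treatment other than age, 1 mouse per library, aged 3 months (young) and 18 months (old) on the same control diet by the study's list of mice. The tissue was labelled seminal vesicle. The other 21 mice of the series covered a range of ages and diets, and some were of the strain C57BL/6J. By the study's description, some of the aged C57BL/6J mice had received rapamycin for a limited time. The young library held 9164 cells past the limits on genes and mitochondrial UMIs with 24827069 UMIs, and the old library 9113 cells with 36580722 UMIs. With 1 mouse per age there was no replicate, so age, mouse and library cannot be told apart, and all intervals cover counting error only. The libraries shared 30 cell barcodes, of 11773 in young and 10729 in old, and 0 of the 279 cells carried a shared barcode.

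The epididymis is the coiled duct in which sperm mature after leaving the testis. Its principal cells line the duct and secrete proteins into the lumen, and the secreted set differs from one segment of the duct to the next. Lipocalins are small secreted proteins that bind lipophilic molecules, cystatins inhibit cysteine proteases, and *Gpx5* encodes a secreted glutathione peroxidase of the caput, the head of the epididymis. The initial segment, which is nearest the testis, is known to depend on the receptor tyrosine kinase *Ros1* and on ERK signaling, with the transcription factors *Etv4* and *Etv5* downstream.

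The labels were set against the values first. Of the 4 markers of the label, *Lcn8* and *Lcn9* were high by the rule and say nothing of it. *Adam28* and *Cst8*, which the rule did not use, were abundant, as described below. The markers were named with earlier results of these data known, so their levels describe the cells and do not check the label. The seminal vesicle label did not hold for its defining secretory genes, since of 8 such genes 5 had 0 UMIs in the Lcn8/Lcn9-rich cells of both libraries and all 8 summed to 10.6 CPM (UMIs of a gene per 1000000 UMIs) in young and 3.56 CPM in old. Over all cells of a library, *Svs5*, a major seminal vesicle secretory protein, stood at 3.54 CPM in young and 3.03 CPM in old, against at least 34457.5 CPM in each of the other 21 mice. *Lcn8* and *Lcn9* went the other way, at 3561 CPM in young and 17016 CPM in old, against 5 UMIs in all among the 219563781 UMIs of the other mice, 16 of which had 0. No Lcn8/Lcn9-rich cell was found among the 14606 cells with at least 3000 UMIs from those mice, which allows a share of up to 0.0205%.

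In young, the 49 cells were 2.25% of the 2173 cells with at least 3000 UMIs (exact Clopper-Pearson 95% interval 1.67% to 2.97%). In old, the 230 cells were 6.50% of 3537 (5.71% to 7.37%). With a limit of 1000 UMIs the shares were 0.673% and 2.92%, so they depend on that limit. The intervals do not overlap, but the spread between mice of 1 age is unknown. A Lcn8/Lcn9-rich cell held a median of 5623 UMIs and 1688 genes in young and 7497 UMIs and 2181 genes in old, and the median mitochondrial share was 2.58% and 3.05%. Thinned to 3000 UMIs, the cells held a median of 1123 and 1196 genes, and the 50 most abundant genes took 41.2% and 39.9% of the UMIs. A doublet score marked 1 of the young and 18 of the old cells, 2.04% and 7.83%. The top-scoring 7.33% and 7.29% of all cells were marked, shares set in advance from the number of cells, so they are not measured doublet rates. Of the Gpx5-rich cells described below, 117 of 1175 in young and 309 of 2309 in old were marked.

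The cells were compared with Gpx5-rich cells, which had at least 2% of their UMIs on *Gpx5* and no more on *Lcn8* and *Lcn9* than on *Gpx5*. There were 1175 of these in young and 2309 in old. Stromal cells, 110 in young and 116 in old, had at least 1% of their UMIs on 5 collagen and muscle genes and show how much epithelial RNA was read in cells that should lack it. Their median depth was 3379 UMIs in young and 3532 UMIs in old. Where a pair of values is given below, the first is from young and the second from old.

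*Lcn8* and *Lcn9* took a median of 6.60% of the UMIs of a Lcn8/Lcn9-rich cell in young, with a range of 3.15% to 9.38%, and of 6.57% in old, with a range of 2.51% to 11.3%. *Gpx5* took a median of 5.25% in young and 5.37% in old and was absent from 1 old cell. The cells were thus rich in both kinds of product. The limit of 2% decided little, since the cells with more lipocalin than *Gpx5* UMIs but under the limit, 56 in young and 182 in old, reached at most 1.36% and 1.37%. The excess over *Gpx5* decided more, since 196 young and 1121 old cells had at least 2% on the lipocalins but no excess. Just inside this border the lipocalins made up 50.1% of the *Lcn8*, *Lcn9* and *Gpx5* UMIs in young and 50.0% in old, and just outside it 50.0% in both. A lipocalin part of 50% to 55% was found in 26 young and 134 old members, and one of 45% to 50% in 35 young and 203 old cells outside the border.

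**Figure D1:**
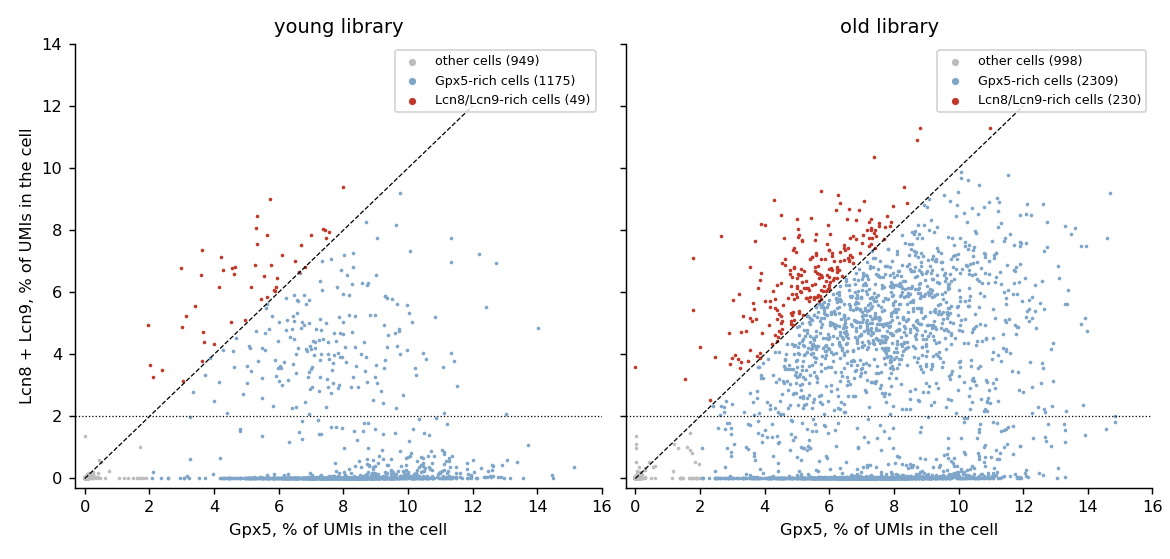
Each point is 1 cell with at least 3000 UMIs, with the share of its UMIs on Gpx5 on the x axis and on Lcn8 and Lcn9 on the y axis (both in %). The dashed line marks equal shares and the dotted line 2%, and the 49 young and 230 old Lcn8/Lcn9-rich cells (red) form the upper edge of a cloud of cells that hold both products, above a dense band of Gpx5-rich cells (blue) near 0 on the y axis.

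*Lcn8* (25653120 to 25656217) and *Lcn9* (25823153 to 25825537) lie on the plus strand of chromosome 2 of GRCm38 (GENCODE vM21), with *Lcn5*, *Lcn6* and *Lcn10* between them. *Lcn8* stood at 52531 CPM in young and 47569 CPM in old, and *Lcn9* at 10255 CPM in young and 18943 CPM in old. *Lcn8* was the most abundant RNA of the cells in young and followed *Gpx5* in old. The molecules of *Lcn8* outnumbered those of *Lcn9* 5.12 to 1 in young and 2.51 to 1 in old. After thinning to 3000 UMIs every Lcn8/Lcn9-rich cell held both, while *Lcn8* was found in 3.64% and 22.4% of young and old stromal cells and *Lcn9* in 0.909% and 12.1%. The sequences before the starts of both genes are shown because the cells were chosen by them, beside that of *Defb48*, an abundant gene called higher in these cells that the rule did not use. Each is the 250 bases before the start in the direction of the gene, from RefSeq on GRCm38.p6, with any steroid hormone response half-site TGTTCT, on either strand, in capitals.
Lcn8, chr2:25652868-25653117, plus strand: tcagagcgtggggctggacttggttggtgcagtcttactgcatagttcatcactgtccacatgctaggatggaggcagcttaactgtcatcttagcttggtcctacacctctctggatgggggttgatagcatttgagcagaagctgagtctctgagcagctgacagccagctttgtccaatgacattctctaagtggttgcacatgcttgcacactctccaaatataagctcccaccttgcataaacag
Lcn9, chr2:25822903-25823152, plus strand: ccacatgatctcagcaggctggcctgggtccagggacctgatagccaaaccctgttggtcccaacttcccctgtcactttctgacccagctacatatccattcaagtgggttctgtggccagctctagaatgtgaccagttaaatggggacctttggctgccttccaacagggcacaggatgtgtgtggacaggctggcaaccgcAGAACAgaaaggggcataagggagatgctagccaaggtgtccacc
Defb48, chr14:62984511-62984760, minus strand: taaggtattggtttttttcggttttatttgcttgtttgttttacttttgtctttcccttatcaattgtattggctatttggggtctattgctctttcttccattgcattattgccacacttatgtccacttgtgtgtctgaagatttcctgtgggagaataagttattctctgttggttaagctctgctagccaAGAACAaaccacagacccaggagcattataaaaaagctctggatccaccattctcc

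The half-site began at position -45 before *Lcn9* and at -56 before *Defb48*, both on the opposite strand and thus read AGAACA, and these letters were not in the *Lcn8* window. Over all 32851 RefSeq windows, from 250 bases before to 50 after a start, 19.0% held the half-site and 8.86% held the ETS core CCGGAAG, with both strands searched. Of the 15 genes highest against Gpx5-rich cells, 12 had a window, 14 windows in all, of which 5 (35.7%) held the half-site and 0 the ETS core. Of the 15 lowest, 6 had a window, 8 in all, of which 4 (50.0%) held the half-site and 1 the ETS core. A match describes the letters and says nothing of binding.

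A gene was called when it was at least 2-fold higher or lower than in Gpx5-rich cells in the same direction in both libraries, among genes with a mean of at least 10 CPM over both classes and libraries. Of 7044 genes tested, 1.7% were called higher and 6.18% lower, and the median log2 ratio over all of them was -0.12 in young and -0.05 in old. Since the rule used these cells, nothing is read from the counts of called genes beside these shares.

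Of 17 lipocalins listed, 10 were tested, 3 were called higher (*Lcn8*, *Lcn9* and *Apod*) and 3 lower (*Lcn5*, *Lcn12* and *Ptgds*). The direction of *Lcn8* and *Lcn9* was set by the rule, and the other 8 had a median log2 ratio of 0.10 in young and 0.16 in old. *Lcn5*, which binds retinoids, stood at 145 CPM in young and 237 CPM in old, against 1046 and 2092 CPM in Gpx5-rich cells. *Lcn12* stood at 39.0 and 32.0 CPM against 705 and 426 CPM, and *Ptgds*, a prostaglandin D synthase of the lipocalin family, at 283 and 239 CPM against 2506 and 1639 CPM. *Lcn2*, which binds bacterial siderophores, *Lcn6* and *Lcn10* were abundant in both classes and were not called, at 9830.5 and 11963 CPM, 5124 and 5179.7 CPM and 3594 and 3178 CPM. *Lcn2* was also read in stromal cells at 944 and 1789.5 CPM. *Apod*, apolipoprotein D, stood at only 49.6 and 32.0 CPM, from 14 UMIs in young, and at 137 and 36.1 CPM in stromal cells.

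Cystatin genes, 9230104L09Rik included, made up 5.21% of the UMIs of these cells in young and 4.61% in old, against 1.94% and 2.84% in Gpx5-rich cells. Of 14 genes listed, 7 were tested, 1 was called higher (*Cst12*) and 1 lower (*Cst6*). The cystatin-related 9230104L09Rik stood at 18018 CPM in young and 18012 CPM in old, *Cst11* at 14767 and 15664 CPM and *Cst12* at 13195 and 5951 CPM. *Cst8* stood at 3814 and 4318 CPM and was found in 100% and 99.6% of thinned cells, against 1.82% and 3.45% of stromal cells. Its log2 ratio to Gpx5-rich cells was 2.02 in young and 0.83 in old, so the marker *Cst8* was not called. *Cst6* had 0 UMIs in young and 6 in old. *Cst8*, *Cst11*, *Cst12* and 9230104L09Rik lie together on chromosome 2, between 148768609 and 148865038.

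Of 9 ADAM genes, which encode membrane proteins with a disintegrin and a metalloprotease-like domain, 6 were tested and only *Adam28* was called. *Adam28* stood at 5266 CPM in young (exact Poisson 95% interval 5002 to 5540.4 CPM) and 5920.1 CPM in old (5804 to 6037 CPM). In Gpx5-rich cells it stood at 594 and 2047 CPM and in stromal cells at 5.08 and 11.3 CPM, and every thinned Lcn8/Lcn9-rich cell held an *Adam28* UMI. *Adam7*, its neighbour on chromosome 14, was as abundant at 5365 and 6448 CPM but was not called, with 8243 and 7651 CPM in Gpx5-rich cells. *Adam2* and *Adam3*, genes of male germ cells, had 0 UMIs.

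**Figure D2:**
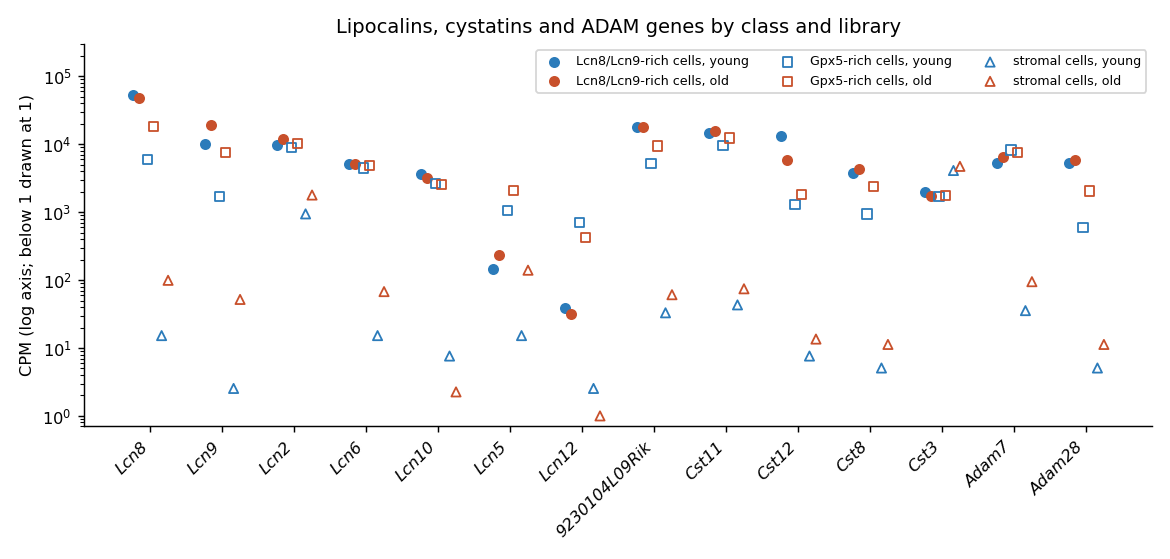
Points are CPM of the UMIs summed over a class of cells (log axis, values below 1 drawn at 1) for 14 genes, with filled circles for Lcn8/Lcn9-rich, open squares for Gpx5-rich and open triangles for stromal cells, young in blue and old in orange. Lcn8, Lcn9, Cst12 and Adam28 sit above their squares and Lcn5 and Lcn12 below them in both libraries, and for Lcn8, Lcn9, Cst8, Cst12 and Adam28 the gap is wider in young than in old.

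Genes tied to the initial segment were present at low levels. Of 18 listed, 12 were tested, 1 was called higher (*Etv4*) and 1 lower (*Ggt1*), with a median log2 ratio of 0.93 in young and 0.51 in old. *Etv4* stood at 56.7 and 57.5 CPM, from 16 UMIs in young, against 6.31 and 20.01 CPM in Gpx5-rich cells. *Etv5* stood at 209 and 181 CPM against 62.8 and 95.5 CPM, which missed 2-fold in old. *Ros1* stood at 53.1 and 62.9 CPM against 27.6 and 36.0 CPM and *Dusp6*, a phosphatase that turns ERK off, at 49.6 and 55.8 CPM against 19.95 and 33.4 CPM, and neither was called. *Ggt1*, a gamma-glutamyl transferase, stood at 24.8 and 8.31 CPM against 78.7 and 55.3 CPM.

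Beta-defensins, small cationic peptides, and the related Spag11 genes made up 7.90% of the UMIs in young and 6.50% in old, against 9.94% and 8.09% in Gpx5-rich cells. The list of defensins, Wfdc genes and protease inhibitors had 34 genes, of which 28 were tested, 3 were called higher (*Defb21*, *Defb48* and *Spinkl*) and 11 lower. Its median log2 ratio was -0.47 in young and -1.39 in old, and -0.24 in young with genes at 0 UMIs set to a floor of 3 counts in the library. *Defb48* stood at 19424 CPM in young and 13886 CPM in old, against 1864 and 4514 CPM in Gpx5-rich cells. Its neighbour on chromosome 14, *Defb47*, went the other way, at 1764 and 1908 CPM against 8296 and 5570.2 CPM. *Defb20* (16948 and 14863 CPM) and *Spag11b* (26694 and 22725 CPM) were abundant in both classes and were not called.

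Of 20 products listed for the later caput, the corpus and the cauda, 17 were tested, 3 were called higher and 7 lower. The direction of *Gpx5*, which is on the list, was set by the rule, and the other 16 had a median log2 ratio of -0.32 in young and -1.01 in old. The 3 were *Crisp4*, a cysteine-rich secretory protein, *Ovch2*, of a secreted protease family, and *Teddm2*, a transmembrane epididymal protein. *Crisp4* stood at 400.2 and 479 CPM against 64.8 and 203 CPM, and *Ovch2* at 1912 and 1977 CPM against 322 and 757 CPM. The 7 lower genes were *Ces5a*, a secreted carboxylesterase, *Teddm1b*, *Cuzd1* and the Kazal-type protease inhibitors *Spink8*, *Spink10*, *Spink12* and *Spink13*. *Ces5a* stood at 10.6 and 13.1 CPM, from 3 UMIs in young, against 479 and 269.5 CPM. Of 12 ribonuclease A genes 4 were tested, 0 were called higher and 2 lower (*Rnase9* and *Rnase13*, both with 0 UMIs in young). At a floor of 3 counts *Rnase9* was at least 4.40-fold lower in young and *Rnase13* at least 1.46-fold, which is under 2-fold, and the median log2 ratio of the 4 genes in young was -1.94 without the floor and -0.17 with it. *Rnase10*, a product of the proximal epididymis, stood at 1438 and 1802 CPM against 495 and 1034 CPM.

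Over all genes, 120 were called higher and 435 lower than in Gpx5-rich cells, of which 32 and 94 had at least 100 CPM in the higher class of both libraries. The young library alone gave 456 higher and 1237 lower, and the old library alone 136 and 561. Among the genes with at least 100 CPM, the 15 with the highest mean log2 ratio were *Teddm2*, *Defb21*, *Cst12*, *Defb48*, *Pla2g5*, *St6galnac2*, *Adam28*, *Lcn8*, *Dapl1*, Gm5916, Gm4846, *Mrpl37*, *Ovch2*, *Lcn9* and *Actg2*. *Teddm2* led, at 3782 and 3491 CPM against 194 and 680.2 CPM, with a log2 ratio of 4.28 in young and 2.36 in old. *Pla2g5*, a secreted phospholipase A2, stood at 149 and 119.8 CPM against 15.7 and 33.5 CPM. *St6galnac2*, a sialyltransferase, stood at 234 and 225 CPM against 24.2 and 78.6 CPM. In stromal cells these 15 genes stood below 100 CPM in both libraries, with the exception of *Actg2*, an actin of smooth muscle, at 919 and 1020 CPM.

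The 15 genes with the lowest mean log2 ratio included *Lypd8*, D730048I06Rik, *Lrcol1*, 9230113P08Rik, *Slc38a5*, *Spink11*, *Ceacam10*, *Spink13*, *Map1b*, *Ces5a*, *Spink12*, *Clu*, *Krt19* and *Defb18*. *Lypd8*, of the Ly6 and uPAR family, stood at 7.08 and 13.1 CPM, from 2 UMIs in young, against 7221 and 3868 CPM. Its young ratio was 1019.6-fold lower, with a counting interval of 282-fold to 8419.5-fold. *Slc38a5*, an amino acid transporter, stood at 46.0 and 38.0 CPM against 3695 and 2307 CPM. *Clu*, a secreted chaperone, stood at 322 and 185 CPM against 4868 and 4178 CPM. *Lrcol1* and 9230113P08Rik had 0 UMIs in the young Lcn8/Lcn9-rich cells and were at least 22.8-fold and 47.0-fold lower there, taking 3 counts in the library as the floor.

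**Figure D3:**
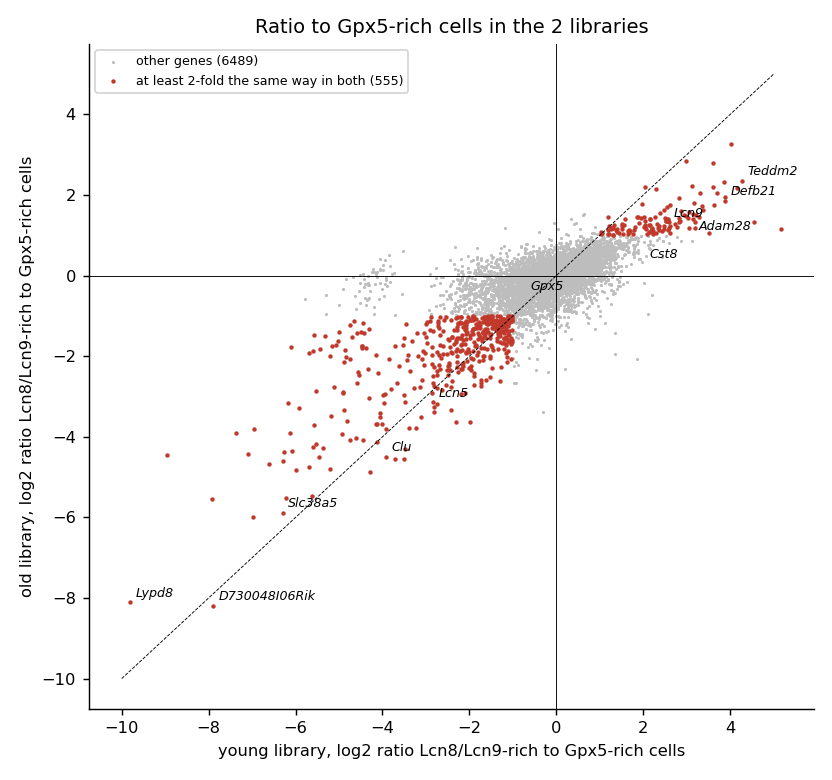
Each point is 1 of 7044 genes, with the log2 ratio of CPM in Lcn8/Lcn9-rich to CPM in Gpx5-rich cells in the young library (x axis) and in the old library (y axis). Red points are the 120 genes called higher and 435 called lower, the dashed line marks equal ratios, and Teddm2 at 4.28 and 2.36 and Lypd8 at -9.80 and -8.11 lie near the 2 ends.

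The Gpx5-rich class was itself mixed. Its cells were therefore ordered by the lipocalin part of their *Lcn8*, *Lcn9* and *Gpx5* UMIs, in bands chosen after the values were seen. In young, 918 Gpx5-rich cells had a part under 5%, 59 from 5% to 20%, 129 from 20% to 40% and 69 from 40% to 50%. In old the numbers were 1041, 132, 611 and 525. Cells with a part under 5% were 75% of both classes together in young and 41.0% in old, so the old comparison class held a larger share of cells with lipocalins.

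Against Gpx5-rich cells with a part under 5%, 331 genes were called higher (4.62% of 7160) and 782 lower (10.9%). Against those with a part of 40% to 50%, 9 were called higher (0.136% of 6634) and 5 lower (0.0754%). By this measure the Lcn8/Lcn9-rich cells differed little from the cells just across the border. In that comparison 64 named genes with a called ratio had a value, of which 54 moved by more than the spread between the libraries and 8 turned, among them *Slc38a5*, *Clu*, *Krt19* and *Ces5a*, which were low on both sides of the border.

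Along the bands the genes took different courses. *Adam28* was higher in each band than in the one before, at 33.6, 598, 3106, 4305 and 5266 CPM in young and 19.6, 823, 3206, 4904 and 5920.1 CPM in old. *Teddm2* climbed later, at 10.2, 54.2, 870.4, 1833 and 3782 CPM in young and 11.5, 149.8, 808, 1965 and 3491 CPM in old. *Etv4* also climbed, at 0.141, 7.07, 36.4, 41.7 and 56.7 CPM in young and 0.587, 5.17, 31.0, 48.4 and 57.5 CPM in old. *Cst8* was highest at 40% to 50%, at 153, 2655, 4422, 4641 and 3814 CPM in young and 76.7, 2337, 4399, 4601 and 4318 CPM in old. *Defb47* was highest at 5% to 20% and lower in each later band, at 7369.6, 23235, 10598, 4215 and 1764 CPM in young and 3709, 16508, 7754, 3637 and 1908 CPM in old, and *Defb20* was highest in the same band. *Lypd8* declined, at 8997, 462, 140.1, 0 and 7.08 CPM in young and 8512, 737, 297, 11.6 and 13.1 CPM in old. *Slc38a5* declined later, at 4511, 1675, 103, 26.3 and 46.0 CPM in young and 4761, 2084, 296, 41.3 and 38.0 CPM in old. Since the bands were cut from *Lcn8*, *Lcn9* and *Gpx5* in the same cells, these courses are a description.

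**Figure D4:**
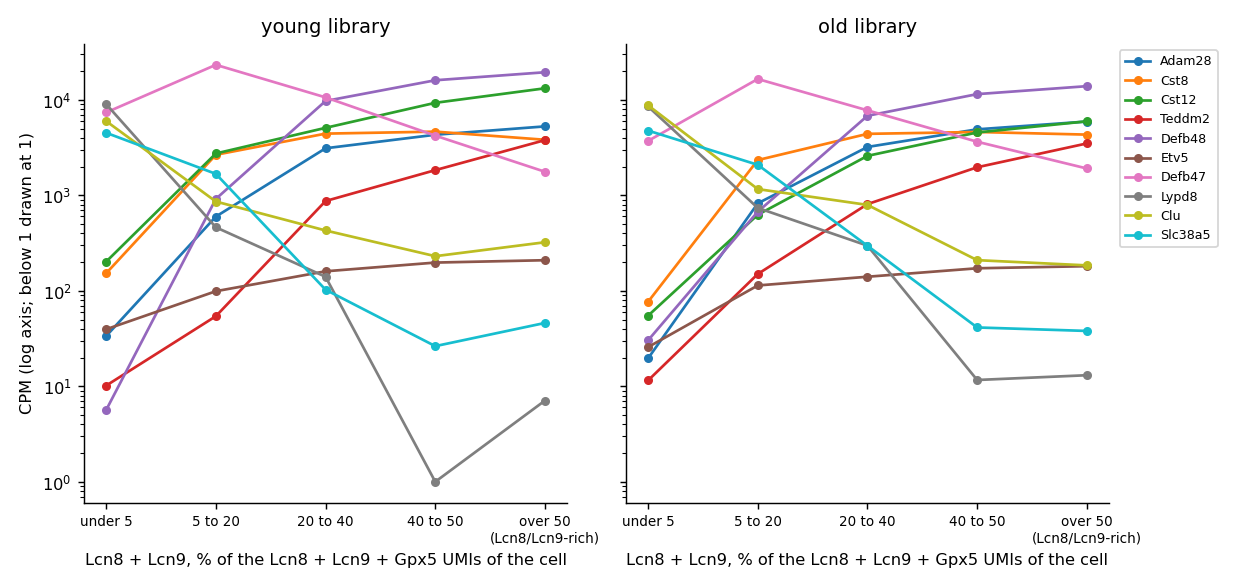
Lines join the CPM (log axis, values below 1 drawn at 1) of 10 genes over 5 bands of cells ordered by the share of Lcn8 and Lcn9 in the Lcn8, Lcn9 and Gpx5 UMIs of the cell (x axis, %), the last band being the Lcn8/Lcn9-rich cells. In both libraries Adam28, Teddm2, Defb48 and Etv5 climb to the last band, Defb47 is highest at 5% to 20%, and Lypd8, Clu and Slc38a5 drop.

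The cells also differed among themselves. After thinning to 3000 UMIs, the Fano factor (variance over mean, near 1 for counting noise alone) was taken over the cells of a library. Over 639 genes with a mean of at least 0.5 UMI in both libraries the median was 1.14 in young and 1.11 in old, and 43 genes exceeded 2 in both. The 10 highest were *Cst12*, *Apoe*, Gm42418, *Teddm2*, *Spag11b*, *Gpx5*, *Defb47*, *Lcn8*, *Malat1* and *Defb20*. *Cst12* had 42.3 and 34.9 in young and old and *Teddm2* 17.2 and 19.8, while *Adam28* had 2.06 and 2.09. A young cell held between 3 and 27 *Adam28* UMIs of 3000, with a median of 15.0, and an old cell between 2 and 34, with a median of 17.0.

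*Cst12* was close to an on or off product. In young, 19 of 49 cells had 0 of 3000 UMIs on *Cst12* and 2 had 1 to 5, while 27 (55.1%, exact 95% interval 40.2% to 69.3%) had at least 20. In old, 111 of 230 cells had 0 and 25 had 1 to 5, while 84 (36.5%, 30.3% to 43.1%) had at least 20. Only 1 young and 10 old cells lay between, and the Cst12-high cells held a median of 67.0 UMIs in young and 39.0 in old. Such cells were 1.20% of young and 0.0961% of old Gpx5-rich cells with a lipocalin part under 5%, and 55.1% and 28.6% of those with 40% to 50%. Cst12-high and Cst12-poor cells (at most 5 UMIs) were similar in depth, with a median of 5814 against 5469 UMIs in young and 7614 against 7365 in old.

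Of 1049 genes with a mean of at least 100 CPM, 2 differed at least 2-fold the same way in both libraries between Cst12-high and Cst12-poor cells. These were *Cst12* itself, by which the cells were split, and *Crisp1*, a cysteine-rich secretory protein. In young *Crisp1* stood at 25.3 against 203 CPM, in only 27 and 21 cells. In old it stood at 55.4 against 177 CPM, in 84 and 136 cells. *Cst8* was lower in Cst12-high cells by less, at 2925 against 4869.9 CPM in young and 3648 against 4744 CPM in old. *Teddm2* differed in old and hardly in young, at 3741 against 3334 CPM in young and 5316 against 2316 CPM in old, and *Adam28* was nearly level, at 5622 against 4861 CPM in young and 5999 against 5805 CPM in old. The split was chosen after the values were seen and has no test.

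**Figure D5:**
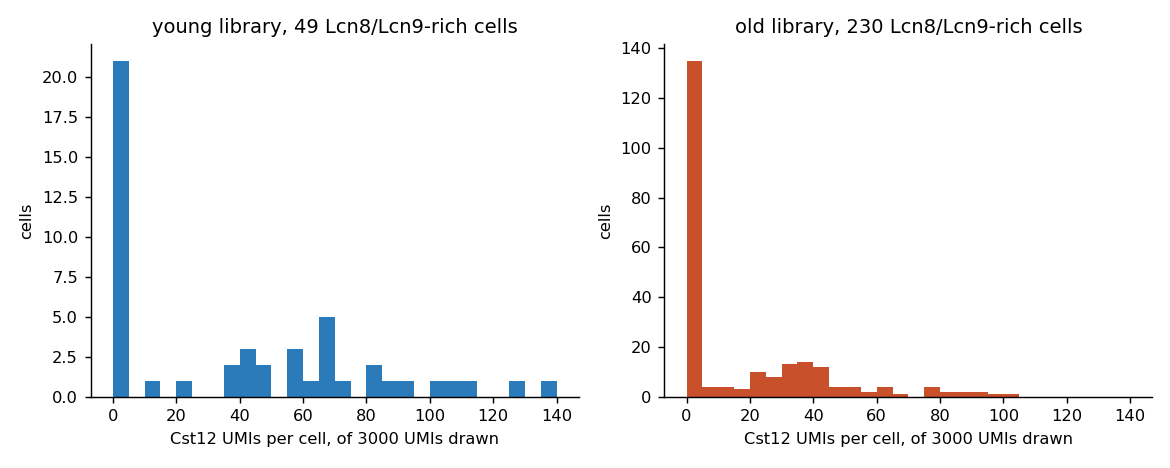
Histograms of Cst12 UMIs per Lcn8/Lcn9-rich cell after thinning to 3000 UMIs (x axis, bins of 5 UMIs; y axis, number of cells, scaled separately), young on the left and old on the right. A column of cells near 0 stands apart from a broad group with at least 20 UMIs, 27 cells in young and 84 in old.

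Across the thinned cells, which share a library and a total of 3000 UMIs each, *Lcn8* and *Gpx5* had a Spearman rho of 0.63 over 49 young and 0.62 over 230 old cells. *Lcn8* and *Lcn9* had -0.08 and 0.09. *Cst12* and *Cst8* had -0.55 and -0.32, and *Defb47* and *Defb20* 0.42 and 0.52. The rule required *Lcn8* and *Lcn9* together to exceed *Gpx5*, so the values among these genes cannot be told apart from the selection. All of these values describe the cells only.

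Between the ages, 472 of 6687 genes with a mean of at least 10 CPM were at least 2-fold higher (7.06%) and 244 at least 2-fold lower (3.65%) in the old Lcn8/Lcn9-rich cells. A level of 10 CPM is 2.82 UMIs in the young and 16.9 UMIs in the old cells. Of 1182 genes with a mean of at least 100 CPM, 3 were 2-fold higher (0.254%) and 7 were 2-fold lower (0.592%). *Lcn9* had a log2 ratio of old to young of 0.89 (0.83 to 0.94), with its counting interval, and *Cst12* of -1.15 (-1.20 to -1.09). *Lcn8* had -0.14, *Adam28* 0.17, *Cst8* 0.18 and *Gpx5* 0.13. In Gpx5-rich cells the ratio was 2.14 for *Lcn9* and 0.48 for *Cst12*, in a class whose makeup differed between the libraries.

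Among genes with at least 100 CPM in the higher library, the 10 with the highest ratio of old to young were *Gdi2*, *Mup6*, *Atp2b1*, *Selenof*, *Cyp51*, *Mylk*, *Lcn9*, *Psma4*, *Atp6v1d* and *Hmgcs1*. *Gdi2*, a regulator of Rab GTPases, stood at 113 CPM in young and 253 CPM in old, a log2 ratio of 1.15 (0.64 to 1.73). The 10 with the lowest ratio included Gm42418, AY036118, *Stmn1*, *Mt2*, *Cst12*, *Apoe*, *Ndrg1*, *Dpm3* and *Gdf15*. *Mt2*, a metallothionein, stood at 669 CPM in young and 291 CPM in old, a log2 ratio of -1.20 (-1.45 to -0.95), against -0.57 in Gpx5-rich cells. Gm42418, which overlaps ribosomal RNA sequence, stood at 3502 and 1135 CPM. *Hmgcs1* and *Cyp51*, of sterol synthesis, were both among the highest. *Apoe*, apolipoprotein E, rested on few cells, with 0 UMIs in 38 of 49 young and 204 of 230 old thinned cells and up to 34 and 42 in 1 cell, and it stood at 6500 and 5475 CPM in stromal cells. With a lipocalin limit of 5% of UMIs the ratio of *Apoe* turned to 1.13 and that of *Stmn1* was 0.013.

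Of 10 lipocalins 0 differed 2-fold between the ages, and of 6 cystatins only *Cst12* did, which with a lipocalin limit of 5% was under 2-fold, at a log2 ratio of -0.89. Of 12 initial segment genes, 2 were 2-fold higher in old, among them *Dicer1*, and *Ggt1* was 2-fold lower, with 2 *Dicer1* and 7 *Ggt1* UMIs in young. Of 22 defensins, Wfdc genes and protease inhibitors, *Defb22* was higher, from 0 UMIs in young and 34 in old, and at a floor of 3 counts, 10.6 CPM in young, its 20.2 CPM in old were under 2-fold higher. *Defb2*, with 7 and 2 UMIs, and *Defb28*, with 20 and 46, were lower.

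Other lists described the state of the cells. Of 9 androgen and steroid response genes 0 were called higher and 2, *Rara* and *Rxra*, lower. Of 10 transport genes *Cftr*, a chloride channel, and *Car2*, carbonic anhydrase 2, were called higher, *Cftr* at 35.4 and 59.9 CPM against 8.34 and 16.8 CPM and *Car2* at 99.2 and 103 CPM against 21.4 and 38.6 CPM. Of 4 proton pump genes *Car2* was called higher and *Atp6v1g3* lower. Of 23 antioxidant genes *Txn1*, thioredoxin, was called higher at 1115 and 1281 CPM against 427 and 582 CPM, and *Ggt1* and *Gstm1* were called lower.

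Of 18 genes of the secretory pathway and the unfolded protein response 0 were called in either direction. Of 19 immediate early and stress genes 0 were called higher and 4 lower (*Atf3*, *Egr1*, *Dnajb1* and *Nr4a1*). *Atf3* stood at 259 and 184 CPM against 1444 and 933 CPM. Lower calls in other lists were *Krt19* and *Cldn4* of 16 junction and keratin genes, *Pax2*, *Elf3* and *Ehf* of 10 epithelial transcription factors, *B2m* of 11 inflammation genes and *Cdkn1a* of 8 senescence genes, with 0 higher calls in these lists. Of 6 Hox genes 0 were called, and *Hoxb7* was the most abundant at 347 and 374 CPM.

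Markers of other cell types were low, with exceptions. All 6 prostate genes and all 6 T and NK cell genes had 0 UMIs. The 5 endothelial genes summed to 0 CPM in young and 5.93 CPM in old, the 6 macrophage genes to 7.08 and 15.4 CPM, the 6 sperm genes to 3.54 and 0.593 CPM, the 6 efferent duct genes to 0 and 4.75 CPM and the 5 red blood cell genes to 14.2 and 1.78 CPM. The 6 basal genes summed to 117 and 73.6 CPM, led by *Krt14* at 53.1 and 33.8 CPM. The 6 fibroblast genes summed to 234 and 276 CPM, led by *Pdgfra* at 152 and 160.2 CPM, while *Dcn*, a defining fibroblast gene, stood at 53.1 and 26.1 CPM against 3657 and 2397 CPM in stromal cells. Of 5 fibroblast genes tested between the ages, 3 collagen genes were 2-fold higher in old and 0 lower, with a median log2 ratio of 1.07. These rested on 2 *Col1a1*, 4 *Col1a2* and 2 *Col3a1* UMIs in young and 50, 70 and 27 in old, and the ratio of *Col1a2* turned from 1.49 to -0.31 with a lipocalin limit of 5% and to -0.84 with doublets left out.

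The smooth muscle genes were the larger exception, with a sum of 3446 and 3570 CPM for 6 genes. *Actg2* gave nearly all of it, at 3226 and 3293 CPM, above the 919 and 1020 CPM of stromal cells. *Myh11*, the defining gene, stood at 28.3 and 33.2 CPM against 2761 and 2898 CPM in stromal cells. Of the 4 urothelial genes *Upk1b* stood at 99.2 and 111 CPM and was called higher, while *Upk1a* had 0 UMIs.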

How the data were processed

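The authors deposited counts of UMIs per gene and cell, without normalization, 1 table per mouse. The young and old tables were made with Cell Ranger 3.1.0 (31053 genes) and the pooled ones with Cell Ranger 6.0.1, and the submitters' processing notes name mm10 and Seurat. Reads were not aligned again.

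UMIs were summed over the cells of a class and library and given as CPM, with ratios as log2 of CPM plus a pseudocount of 1. No test was run, because the rule used the same cells and each age had 1 mouse. Exact intervals at 95% (Poisson, binomial and, for ratios, conditional binomial) cover counting error only. Cells were thinned without replacement, and doublets were scored with Scrublet (scanpy 1.11.5). The calling step was tested on simulated sums with known folds and counting error only. These sums lacked the spread between cells, so the calls were not tested against that spread. Software was Python 3.11.15, NumPy 2.4.6 and SciPy 1.17.1.

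The members and lists were chosen with earlier results of these data known. Named genes were those on 30 lists, the 15 most abundant, the 15 highest and lowest class ratios and the 10 highest and lowest age ratios at 100 CPM or more, and the 10 highest Fano factors; some of these genes are not reported here. The family sums of cystatins and of Defb and Spag11 genes were formed by symbol after the values were seen. Alternatives changed the limits on cells, doublets, scaling, pseudocount, filter, libraries and comparison cells.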

Additional observations from a re-analysis of the deposited data

Results flagged for a closer look

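Among genes past the filter, 5 were at least 2-fold higher in Lcn8/Lcn9-rich than in Gpx5-rich cells in 1 library and at least 2-fold lower in the other, and the difference between the libraries was not tested. *Igfbp2*, which binds insulin-like growth factors, had a log2 ratio of 1.35 in young, from 11 UMIs, and -1.94 in old, from 5 UMIs. *Defb28*, a beta-defensin, had 1.36 in young, from 20 UMIs, and -1.42 in old, from 46 UMIs. *Marcks*, a substrate of protein kinase C, had 1.12 from 10 UMIs and -1.18 from 14 UMIs. *Rrad*, a small GTPase, had 1.85 from 17 UMIs and -2.07 from 8 UMIs. *Ficd*, an enzyme of the endoplasmic reticulum, went the other way, with -1.17 in young, from 1 UMI, and 1.17 in old, from 38 UMIs. *Igfbp2*, *Defb28* and *Rrad* were each found in only 4.08% of the 49 young cells after thinning to 3000 UMIs. In stromal cells *Igfbp2* stood at 2272 CPM in young and 544 CPM in old and *Rrad* at 683 and 835 CPM, and the part of stromal RNA in these results was not tested.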

How the results depend on the processing

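Dropping the limit on UMIs to 1000 put the share at 0.673% in young and 2.92% in old, and raising it to 6000 left 19 young cells, with 756 genes 2-fold higher and 581 lower in old. A lipocalin limit of 5% put the old share at 5.65%. A pseudocount of 5 CPM left 271 genes higher and 109 lower in old. A filter of 1 CPM called 200 genes higher and 1053 lower against Gpx5-rich cells and 2063 higher and 1246 lower in old, and a filter of 50 CPM called 45 and 133, and 17 and 13. Cells thinned to 3000 UMIs gave 887 genes higher and 422 lower in old. With 1 library at a time, 136 to 456 genes were called higher and 561 to 1237 lower against Gpx5-rich cells, the larger counts without the old library. The next 3 alternatives were chosen after seeing the data. The filter of 100 CPM gave 3 genes higher and 7 lower in old. Comparison cells with a lipocalin part under 5% gave 331 higher and 782 lower, and those with 40% to 50% gave 9 and 5, where the mean log2 ratio turned for *Ehf* (0.24), *Slc38a5* (0.33), *Ggt1* (0.45), *Ces5a* (0.61), *Clu* (0.15), *Krt19* (1.22), *Spink11* (0.32) and *Apod* (-0.13). Between the ages the ratio turned at the lipocalin limit of 5% for *Stmn1* (0.013), *Apoe* (1.13) and *Col1a2* (-0.31), and for *Col1a2* (-0.84) with doublets left out, where it had been 1.49. The causes were not tested, apart from fewer or more genes tested under the filters.

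Under the other limits on UMIs, mitochondrial UMIs and lipocalins, without doublets and with other scalings or the pseudocount of 5 CPM, 59 to 76 of 76 to 78 named ratios to Gpx5-rich cells stayed within the spread between the libraries and 0 turned. With comparison cells of a part under 5% this held for 29 of 76, and with those of 40% to 50% for 2 of 64. The filters, the limit of 200 genes, which gave the same cells, and single libraries could not move a ratio beyond that spread. Of the named ratios between ages, 24 of 30 stayed within their counting interval at the lipocalin limit of 5%, 30 of 33 without doublets, 32 of 37 at 6000 UMIs and 27 of 31 with thinned cells. The higher share of called genes against Gpx5-rich cells was 21.6%, 25% with *Lcn8*, *Lcn9* and *Gpx5* left out of CPM and 25.7% with median-of-ratios scaling. The class ratios were taken within each of the 2 libraries and no test was run on them, since the rule used the same cells. The cells held 282388 UMIs in young and 1685622 in old.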
